A study of Mus musculus with 9 samples.

Results

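Most of the 8 genes described here mark cells between the cords of the fetal testis. These are the interstitial progenitor genes Nr2f2, Tcf21, Pdgfra and Maf and the perivascular and smooth muscle genes Nes, Acta2 and Cnn1. The remaining gene, the growth factor gene Pdgfa, encodes a ligand that acts on interstitial cells. The 8 genes were chosen by name from their known roles, with earlier results of these data known. Of the 8 genes, 7 were among the 15300 genes of the tables used, and Cnn1 was not analysed here. RNA sequencing compared fetal gonads of C57BL/6 mice at E13.5 (days after conception), cut away from the neighbouring mesonephros, in 3 groups of 3 samples. XY-KO samples were testes of genotype AMH-Cre; Sox9flox/flox, XX-WT samples were ovaries and XY-WT samples testes of Sox9flox/flox fetuses, both labelled wildtype. All 3 groups thus carried the floxed Sox9 allele. Cre under the AMH promoter acts in Sertoli cells, the supporting cells inside the cords, so the genes described here mostly belong to cells outside the ones in which the allele was meant to be cut. It is not stated whether each sample was 1 fetus or a pool, so the spread between samples, on which the errors below rest, may be in part technical.

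The interstitium of the fetal testis holds progenitor cells from which steroid-making Leydig cells and other stromal cells arise, together with blood vessels and the pericytes and smooth muscle cells around them. Nr2f2 (COUP-TFII) is a nuclear receptor, Tcf21 a bHLH transcription factor and Maf a bZIP transcription factor of these progenitors. Pdgfra is the receptor for the secreted ligand PDGF-A, which in the fetal testis comes largely from cells of the cords and acts on interstitial cells. Nes encodes nestin, an intermediate filament protein of perivascular progenitors, Acta2 encodes smooth muscle actin, and Cnn1 encodes calponin, an actin-binding protein of smooth muscle. The comparisons place this set in the testis with Sox9 deleted, in the ovary and in the testis with Sox9 intact.

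The values are the authors' limma results for group against group, given as log2 fold changes with a standard error (SE) computed from the t score, and a gene was called at an adjusted p under 0.05. No values per sample were used here, so precision is given by SEs and 95% intervals, and the depth of each library is unknown. The t score is limma's moderated one, which borrows variance across genes, so an SE is not the spread of that gene's samples alone. Group levels are in CPM (counts relative to the sum of each library) and were derived from the deposited mean and fold changes with equal weight for the 3 groups. Mitochondrial ribosomal RNA (mt-Rnr1 and mt-Rnr2) made up an estimated 44%, 44.3% and 46.4% of the scaled total in XY-KO, XX-WT and XY-WT, so the CPM of every other gene is a share of a total that includes it. Sox9 itself was 6.78-fold lower in XY-KO than in XY-WT (95% interval 5.26 to 8.75). Of 20 Sertoli cell markers, 15 fell in XY-KO against XY-WT, and 19 fell and 1 rose in XX-WT against XY-WT. Of 11 genes listed for ovarian supporting cells, which included Nr2f2, 10 rose and 1, Nr2f2, fell in XX-WT against XY-WT. In XY-KO against XY-WT 1 of these 11, Lgr5, fell and none rose. In XY-KO against XX-WT, Sox9 was still 3.28-fold higher (95% interval 2.32 to 4.63). Of the 20 Sertoli cell markers, 14 were higher and 2 lower in that comparison. These are bulk samples, so fewer cells of a type and less RNA per cell cannot be told apart.

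In XY-KO against XY-WT 1 of the 7 measured members, Maf, rose, by 1.41-fold, and none fell. Pdgfa had a log2 fold change of -0.63 that was not called. Nr2f2, Tcf21, Pdgfra, Nes and Acta2 lay between -0.24 (Tcf21) and 0.07 (Pdgfra) and were not called. The median over the 7 was -0.07. The median over all genes was -0.01. Over all 15300 genes 2.27% were called in this comparison, 0.699% higher and 1.57% lower. With 7 members, 1 call is too small a count to read against that background.

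In XX-WT against XY-WT most of these genes were lower in the ovary. Of the 7 members, 6 fell: Acta2 by 4.22-fold, Tcf21 by 3.64-fold, Pdgfra by 2.45-fold, Nr2f2 by 1.89-fold, Nes by 1.45-fold and Pdgfa by 1.41-fold. Maf was not called, at a log2 fold change of -0.20 (95% interval -0.45 to 0.05). The median over the 7 was -0.92, beside 0.00 over all genes. Over all genes 23.3% were called, 10.9% higher and 12.4% lower, so 6 of 7 called lower lay above the background share. The genes were chosen with earlier results of these data known, so this count is a description and not a test.

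In XY-KO against XX-WT, 5 of the 7 members rose: Acta2 by 3.68-fold, Tcf21 by 3.09-fold, Pdgfra by 2.58-fold, Nr2f2 by 1.89-fold and Maf by 1.62-fold. Nes and Pdgfa were not called. The median log2 fold change over the 7 was 0.92, beside 0.00 over all genes, of which 18.3% were called, 9.16% higher and 9.11% lower. The XY-KO samples enter this comparison and the first, the XX-WT samples this one and the second, and the XY-WT samples the first and the second, so the 3 sets of values are not independent of each other.

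**Figure D1:**
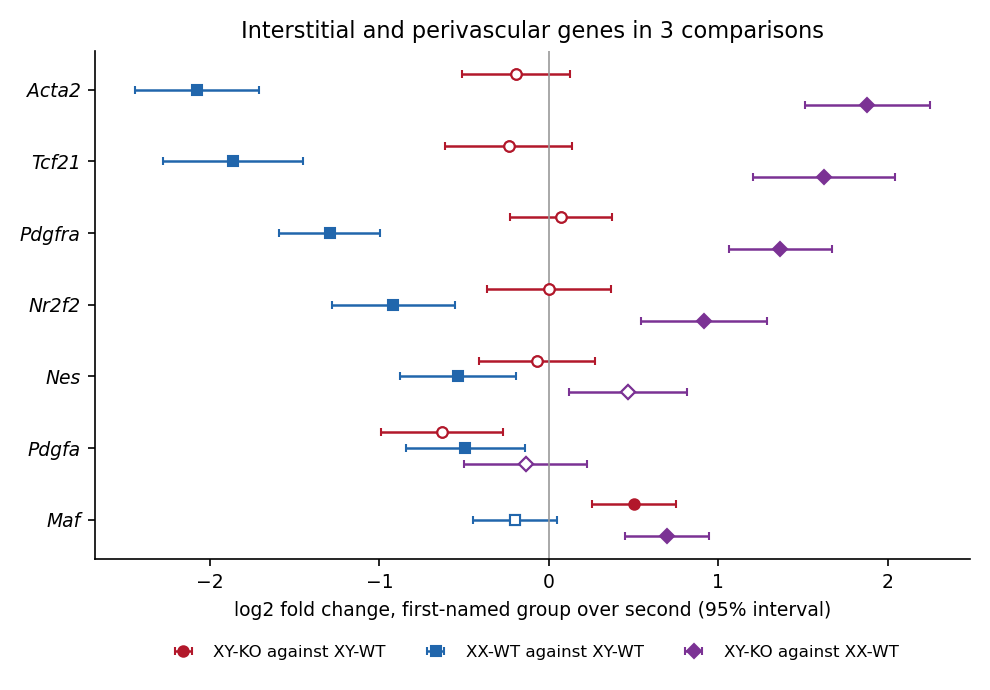
Log2 fold changes of the 7 measured genes (rows) in the 3 comparisons, each with its 95% interval, the first-named group over the second, with open markers for values that were not called. In XY-KO against XY-WT the intervals of all genes but Maf and Pdgfa cross 0, whereas in XX-WT against XY-WT the interval of Maf is the one that crosses 0.

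Among the progenitor transcription factors, Nr2f2 and Tcf21 fell in XX-WT against XY-WT and Maf rose in XY-KO. Nr2f2 (ENSMUSG00000030551, GRCm38 chr7:70351944-70366735, minus strand) had derived levels of 217 CPM in XY-KO, 115 CPM in XX-WT and 218 CPM in XY-WT, and its mean level was above that of 97.3% of all genes. The derived level in XY-KO lay beside that in XY-WT, and the ovary lay below both. Per the authors' deposited table Nr2f2 changed by -0.001 log2 in XY-KO against XY-WT (SE 0.172, adjusted p 0.998), and the 95% interval of -0.37 to 0.37 bounds a change in either direction at 1.29-fold. The authors' deposited table gave -0.92 in XX-WT against XY-WT (SE 0.171, adjusted p 0.000996) and 0.92 in XY-KO against XX-WT (SE 0.174, adjusted p 0.00137).

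Nr2f2 shares its locus with B130024G19Rik, a gene on the opposite strand whose exons overlap it. B130024G19Rik had 39 CPM in XY-KO, 16.3 CPM in XX-WT and 26 CPM in XY-WT, and fell by 0.68 log2 in XX-WT against XY-WT in the authors' deposited table (adjusted p 0.0397). Whether the counting used strand is not given in the sources used here, so reads of the overlapping exons cannot be told apart between the pair. Among the relatives of Nr2f2 in the family of COUP-TF receptors, Nr2f1 and Nr2f6 were called in neither comparison with XY-WT. Per kilobase of exon, Nr2f2 stood at 25.2 CPM in XY-KO, 13.4 in XX-WT and 25.2 in XY-WT, whereas Nr2f1 stood at 2.31, 1.88 and 1.84 and Nr2f6 at 1.25, 1.73 and 1.69 in the same 3 groups.

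Tcf21 (ENSMUSG00000045680, GRCm38 chr10:22817281-22820174, minus strand) had derived levels of 43.5 CPM in XY-KO, 14.1 CPM in XX-WT and 51.3 CPM in XY-WT. In the authors' deposited table it changed by -0.24 log2 in XY-KO against XY-WT (SE 0.176, adjusted p 0.5), with a 95% interval of -0.61 to 0.14 that spans 0. By the authors' deposited table it fell by 1.87 log2 in XX-WT against XY-WT (SE 0.195, adjusted p 4.08e-06) and was higher by 1.63 in XY-KO than in XX-WT (SE 0.197, adjusted p 2.48e-05). Both kinds of testis therefore lay above the ovary. The bases just upstream are shown here and for Pdgfra, since both genes fell in the ovary. They were searched on both strands for the E-box CANNTG, the site of bHLH factors such as Tcf21, and this window holds none, so no letter is in capitals.
Tcf21 chr10:22820175-22820393 (GRCm38.p6, minus strand): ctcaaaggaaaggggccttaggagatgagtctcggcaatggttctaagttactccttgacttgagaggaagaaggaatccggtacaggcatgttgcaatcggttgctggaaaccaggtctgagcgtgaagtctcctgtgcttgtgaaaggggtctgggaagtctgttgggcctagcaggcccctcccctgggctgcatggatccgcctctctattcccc
The stretch ends at the base before the first annotated exon, which takes up the rest of the 250-base window. Across 32851 RefSeq windows of 250 bases before a gene start, 66.2% held CANNTG on either strand, and the absence of these letters here describes this window only.

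Most of the bHLH genes related to Tcf21 were lower in the ovary as well. Of 7 measured genes of that list, Tcf21 included, 5 fell in XX-WT against XY-WT and none rose, with a median of -1.53. In XY-KO against XY-WT none of the 7 was called, none had an unadjusted p under 0.05 in limma, and the median was -0.21. Per the authors' deposited table the change in XX-WT against XY-WT was -1.93 for Tcf24 (adjusted p 0.000136), -1.53 for Twist1 (adjusted p 0.000551), -1.17 for Tcf23 (adjusted p 0.00225) and -1.98 for Hand2 (adjusted p 0.0459). Twist1 and Hand2 are mesenchymal regulators of many embryonic tissues. These genes were expressed at low levels, for Tcf24 4.92 CPM in XY-KO, 1.49 CPM in XX-WT and 5.68 CPM in XY-WT, and Msc and Scx were not among the genes of the tables.

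Maf (ENSMUSG00000055435, GRCm38 chr8:115682942-115707794, minus strand) was the member called higher in XY-KO than in each of the other groups. Its derived level was 95.8 CPM in XY-KO, 59 CPM in XX-WT and 67.7 CPM in XY-WT. In the authors' deposited table Maf rose by 0.50 log2 in XY-KO against XY-WT (SE 0.116, adjusted p 0.0344), a 1.41-fold rise with a 95% interval of 1.19 to 1.68. The authors' deposited table also placed Maf higher by 0.70 in XY-KO than in XX-WT (SE 0.117, adjusted p 0.000491). Once the dependence of fold changes on transcript length and GC was taken out, the log2 fold change against XY-WT was 0.47 and the adjusted p 0.0537, which ended the call. The overlapping opposite-strand gene Gm15655 changed by 0.44 log2 in XY-KO against XY-WT in the authors' deposited table (adjusted p 0.257).

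Of 5 measured MAF genes, Maf was the 1 called in XY-KO against XY-WT, and no test of its difference from the others was run. In XX-WT against XY-WT the small MAF factor Mafk fell by 2.35 log2, per the authors' deposited table (SE 0.254, adjusted p 5.84e-06), at 7.64 CPM in XY-KO, 1.84 CPM in XX-WT and 9.4 CPM in XY-WT. 

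The receptor gene Pdgfra (ENSMUSG00000029231, GRCm38 chr5:75152292-75198215, plus strand) had 252 CPM in XY-KO, 97.8 CPM in XX-WT and 240 CPM in XY-WT, above 97.4% of all genes by mean level. XY-KO and XY-WT differed by less than their error, at a log2 fold change of 0.07, per the authors' deposited table (SE 0.14, adjusted p 0.826) with a 95% interval of -0.23 to 0.37. In XX-WT against XY-WT it fell by 1.29 log2 (SE 0.14, adjusted p 6.03e-06) and in XY-KO against XX-WT it rose by 1.37 (SE 0.143, adjusted p 5.46e-06), as the authors' deposited table has it. The 250 bases before the RefSeq start are printed because Pdgfra was among the members that fell in the ovary and these bases hold no annotated exon. The capitals mark the E-box CANNTG at positions -182 to -177 from the start.
Pdgfra chr5:75152001-75152250 (GRCm38.p6, plus strand): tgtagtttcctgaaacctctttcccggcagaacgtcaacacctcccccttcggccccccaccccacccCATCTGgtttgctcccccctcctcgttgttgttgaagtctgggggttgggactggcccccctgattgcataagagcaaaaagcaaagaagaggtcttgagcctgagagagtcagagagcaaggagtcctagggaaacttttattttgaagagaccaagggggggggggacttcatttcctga
The letters AACAAT, the core that SOX proteins bind, were on either strand in none of the windows of the 6 measured members that had one, and the window of Cnn1 held them at -148 to -143. Of all windows, 9.42% held them. The half-site AGGTCA of nuclear receptors, read on both strands, was in none of the members' windows and in 14% of all windows.

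The ligand gene Pdgfa (ENSMUSG00000025856, GRCm38 chr5:138976014-138997370, minus strand) had 20.7 CPM in XY-KO, 22.8 CPM in XX-WT and 32 CPM in XY-WT. It was the member whose level in XY-KO lay nearer the ovary than the testis with Sox9. By the authors' deposited table it changed by -0.63 log2 in XY-KO against XY-WT (SE 0.168, adjusted p 0.0658), a 1.55-fold difference with a 95% interval of 1.21 to 1.98 that was not called. With p adjusted over the 3 comparisons together the adjusted p was 0.0189. Once the GC and length trend was taken out, the change in XY-KO was -0.47 with an adjusted p of 0.192. Per the authors' deposited table Pdgfa fell by 0.49 log2 in XX-WT against XY-WT (SE 0.165, adjusted p 0.0414), a call lost at 0.0576 over the 3 comparisons together and at 0.102 without the GC and length trend, where the change was -0.39. XY-KO and XX-WT differed by -0.14 log2, per the authors' deposited table (SE 0.171, adjusted p 0.655), with a 95% interval of -0.50 to 0.23. The overlapping opposite-strand gene 6330403L08Rik changed by -0.30 in both XY-KO and XX-WT against XY-WT in the authors' deposited table (adjusted p 0.631 and 0.507).

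Among the other PDGF genes the second receptor gene was lower in the ovary too. Pdgfrb, the receptor of pericytes and other mural cells, fell by 1.29 log2 in XX-WT against XY-WT (SE 0.171, adjusted p 4.36e-05), per the authors' deposited table, and changed by -0.27 in XY-KO against XY-WT (adjusted p 0.394). Its level was 50.2 CPM in XY-KO, 24.7 CPM in XX-WT and 60.6 CPM in XY-WT. Of the ligands, Pdgfb fell by 1.28 in XX-WT against XY-WT (adjusted p 0.00842), from the authors' deposited table, at levels of 1.25 CPM in XY-KO, 0.913 CPM in XX-WT and 2.22 CPM in XY-WT. Pdgfc, in contrast, stood at 28.9 CPM in XY-KO, 25.1 CPM in XX-WT and 19.1 CPM in XY-WT and was not called against XY-WT in either group (0.60 with an adjusted p of 0.117 and 0.39 with 0.152 in the authors' deposited table). Per kilobase of exon the ligand genes ranked Pdgfa (10.3 CPM), Pdgfc (3.76), Pdgfd (2.59) and Pdgfb (0.533) in XY-WT, and Pdgfc stood at 5.68 in XY-KO and 4.93 in XX-WT.

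**Figure D2:**
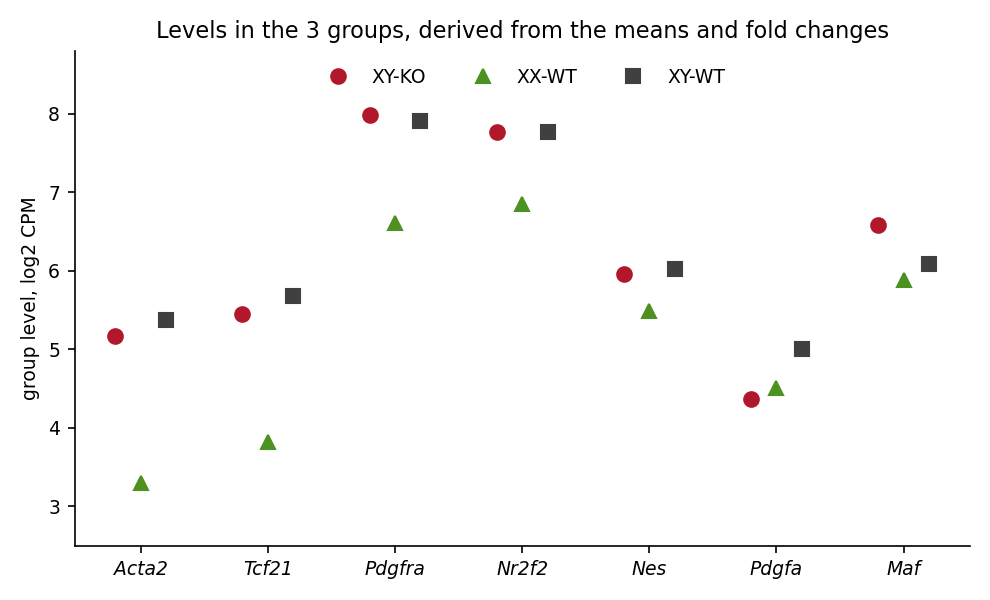
Derived group levels of the 7 genes in log2 CPM (y axis) for XY-KO, XX-WT and XY-WT (markers). Acta2 and Tcf21 show the widest gap between the ovary and both kinds of testis, and Pdgfa in XY-KO lies beside XX-WT.

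The perivascular and smooth muscle genes Nes and Acta2 differed in how far they set the ovary apart. Acta2 (ENSMUSG00000035783, GRCm38 chr19:34241090-34255590, minus strand) had 36.1 CPM in XY-KO, 9.81 CPM in XX-WT and 41.4 CPM in XY-WT, the widest gap between ovary and testis of the 7 members. In the authors' deposited table it fell by 2.08 log2 in XX-WT against XY-WT (SE 0.172, adjusted p 3.54e-07), changed by -0.20 in XY-KO against XY-WT (SE 0.149, adjusted p 0.513) and rose by 1.88 in XY-KO against XX-WT (SE 0.174, adjusted p 1.53e-06). The 95% interval between the testes was -0.51 to 0.12. Smooth muscle genes are known targets of SRF, which binds the CArG box, CC, then 6 A or T bases, then GG. With 1 C or G allowed in that core, a rule chosen after the strict box was found in no member's window, the Acta2 window held 2 such boxes, printed here in capitals within 30 bases each.
Acta2 chr19:34255438-34255467 (GRCm38.p6, minus strand): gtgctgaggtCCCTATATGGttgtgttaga
Acta2 chr19:34255388-34255417 (GRCm38.p6, minus strand): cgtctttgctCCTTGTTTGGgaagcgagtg
They lay at -84 to -75 and -34 to -25 from the RefSeq start, inside an Acta2 exon of the GENCODE annotation, which covers most of this window. Across all windows 1.47% held the strict box, 8.59% the relaxed one and 0.67% at least 2 of the relaxed one. A match is a description of letters and was not tested as a binding site. The printed sequences are from RefSeq on GRCm38.p6, in which 7 of the 8 genes had a window.

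Nes (ENSMUSG00000004891, GRCm38 chr3:87971078-87980451, plus strand) had 62 CPM in XY-KO, 44.9 CPM in XX-WT and 65 CPM in XY-WT. By the authors' deposited table it changed by -0.07 log2 in XY-KO against XY-WT (SE 0.16, adjusted p 0.857) and fell by 0.54 in XX-WT against XY-WT (SE 0.161, adjusted p 0.0244). Without the GC and length trend the change in XX-WT was -0.38 and its call was lost (adjusted p 0.109), and the change in XY-KO was 0.08 (adjusted p 0.858). Against XX-WT the XY-KO level was higher by 0.47 log2 (SE 0.163, adjusted p 0.0589), as the authors' deposited table has it, which was not called, with a 95% interval of 0.12 to 0.81. Per kilobase of exon, Nes stood at 9.66 CPM in XY-KO, 6.99 in XX-WT and 10.1 in XY-WT.

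Of the 8 measured intermediate filament genes, Nes included, 3 fell and 1 rose in XX-WT against XY-WT, and 1 fell in XY-KO against XY-WT. The gene that fell in both was Synm, a filament protein of muscle cells, by 2.13 log2 in XX-WT (adjusted p 4.4e-06) and by 0.77 in XY-KO (adjusted p 0.0464), per the authors' deposited table. Vim, the filament protein of most mesenchymal cells, had 374 CPM in XY-KO, 246 CPM in XX-WT and 434 CPM in XY-WT and fell by 0.82 in XX-WT against XY-WT (adjusted p 0.000117), from the authors' deposited table. Nefm, a neuronal filament gene, was higher by 2.68 in XX-WT (SE 0.787, adjusted p 0.0217), as the authors' deposited table has it, at 0.68 CPM in XY-KO, 7.04 CPM in XX-WT and 1.1 CPM in XY-WT. Of the 4 measured actin genes, Acta2 and Actb fell in XX-WT against XY-WT and none was called in XY-KO against XY-WT (1 had an unadjusted p under 0.05 in limma).

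**Figure D3:**
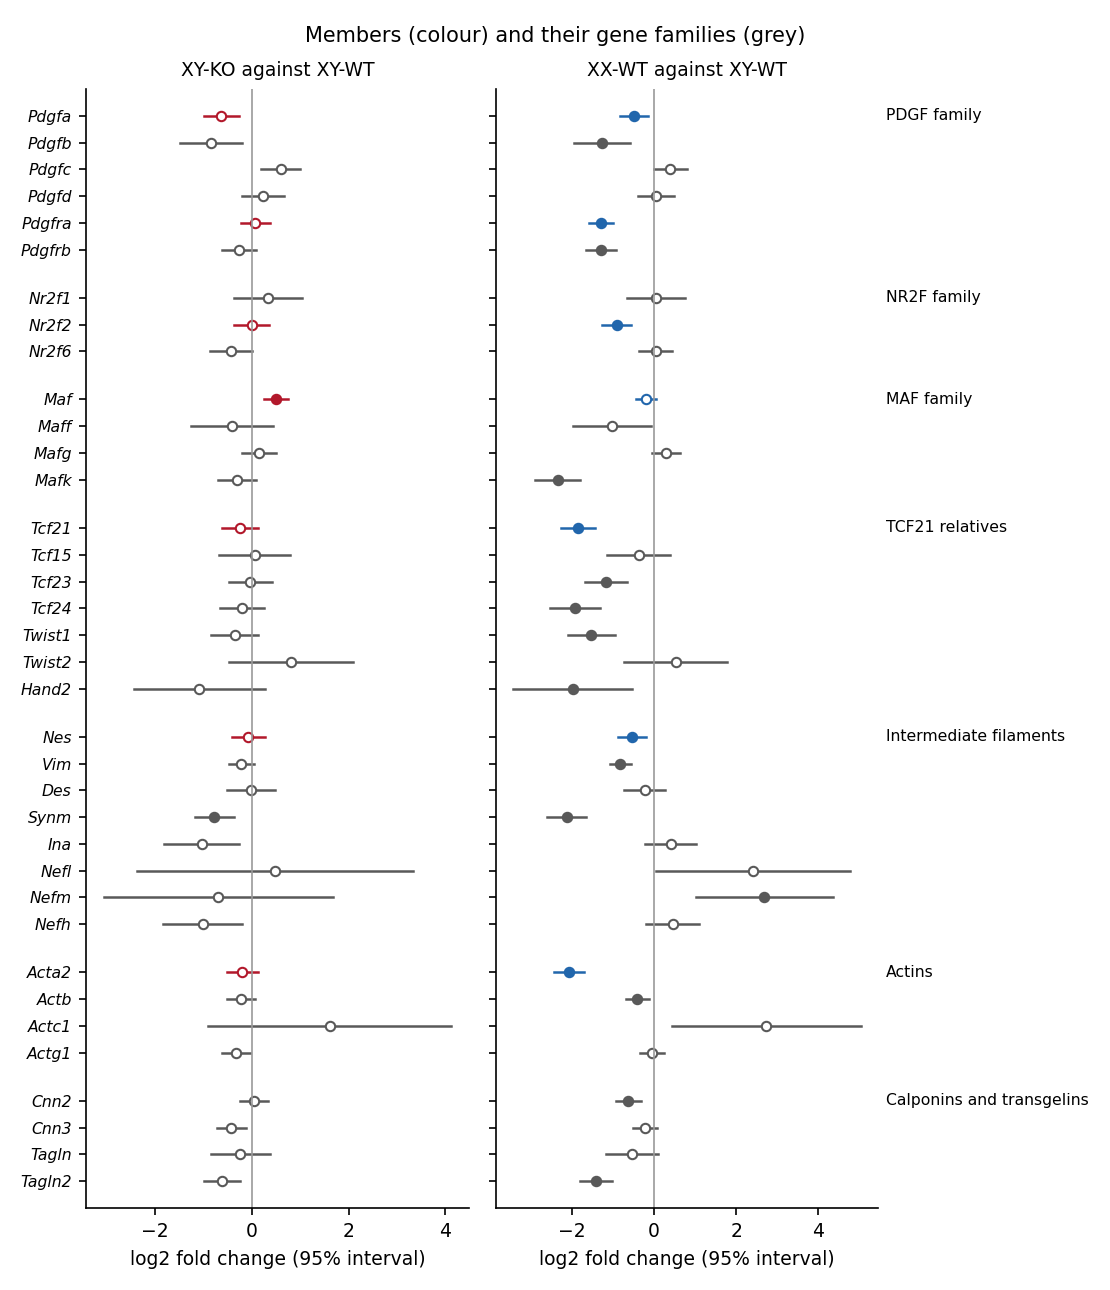
Log2 fold changes with 95% intervals for the members (colour) and other genes of their families (grey), one panel for XY-KO and one for XX-WT, each against XY-WT. In the XX-WT panel Pdgfrb, Mafk, Synm and Tcf24 lie to the left of 0 together with the members, while in the XY-KO panel Maf and Synm carry the filled markers.

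Cnn1, the calponin of differentiated smooth muscle, was not among the genes of the tables, so its level was not analysed here. Its relatives gave 4 measured genes. Cnn2 fell by 0.63 log2 (adjusted p 0.00396) and Tagln2 by 1.42 (adjusted p 3.47e-05) in XX-WT against XY-WT in the authors' deposited table, whereas Cnn3 and Tagln were not called. In XY-KO against XY-WT none of the 4 was called, and 2 had an unadjusted p under 0.05 in limma. Cnn2 stood at 43.3 CPM in XY-KO, 27.1 CPM in XX-WT and 41.9 CPM in XY-WT. Srf, Myocd, Mrtfa and Mrtfb, the 4 measured genes of the factor that drives smooth muscle genes and its co-activators, were called in neither comparison with XY-WT; 0 of them in XY-KO and 1 in XX-WT had an unadjusted p under 0.05 in limma.

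Genes of the wider interstitium were set beside the members. Over all genes 2.27% were called in XY-KO against XY-WT and 23.3% in XX-WT against XY-WT. At the first share a short list without a call, here and below, does not show that its genes were unchanged. None of 28 measured mesenchymal genes beside the members was called in XY-KO against XY-WT (2 at an unadjusted p under 0.05 in limma, median -0.06), whereas in XX-WT against XY-WT 13 fell and 5 rose, with a median of -0.56. In XX-WT the integrin Itga9 fell by 2.08 (adjusted p 8.51e-09), the chemokine Cxcl12 by 2.62 (adjusted p 3.13e-07) and the activin subunit Inhba by 3.99 (adjusted p 1.21e-06), from the authors' deposited table. The 5 that rose in XX-WT included Wnt4, the signal of ovarian support, by 2.23 (adjusted p 3.98e-07) and Igf1, a growth factor, by 1.10 (adjusted p 1.38e-05), as the authors' deposited table has it. Tbx18 and Foxd1 were not among the genes of the tables.

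The contractile genes gave a mixed picture in the ovary. Of 15 measured smooth muscle and myoid genes, 7 fell and 4 rose in XX-WT against XY-WT (median -0.46), and none was called in XY-KO against XY-WT (4 at an unadjusted p under 0.05 in limma, median 0.05). The myosin kinase Mylk fell by 1.18 log2 (adjusted p 5.35e-06) and the tropomyosin Tpm1 by 0.98 (adjusted p 1.19e-05), while the myosin light chain Myl9 rose by 1.26 (adjusted p 0.000119) and the heavy chain Myh11 by 0.96 (adjusted p 0.00171), all in the authors' deposited table. The fall of Acta2 in the ovary was thus not shared by every contractile gene. Of 13 measured pericyte genes, 5 fell and 1, Anpep, rose in XX-WT against XY-WT (median -0.62), and none was called in XY-KO against XY-WT (3 at an unadjusted p under 0.05 in limma, median -0.27). Those that fell included the endothelin receptor Ednra (-1.50, adjusted p 1.28e-05) and the proteoglycan Cspg4 (-1.62, adjusted p 0.000154) in the authors' deposited table.

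Notch and hedgehog genes, whose signals are known to act on interstitial progenitors, were set beside the members. Of 20 measured Notch pathway genes, 6 fell and none rose in XX-WT against XY-WT, and none was called in XY-KO against XY-WT (2 at an unadjusted p under 0.05 in limma). The ligand Jag1 had 43.5 CPM in XY-KO, 6.37 CPM in XX-WT and 42.3 CPM in XY-WT, and the target Heyl had 48.7, 7.61 and 45.9 CPM in the same groups. Per the authors' deposited table Jag1 changed by 0.04 log2 in XY-KO (adjusted p 0.924) and by -2.73 in XX-WT (adjusted p 2.32e-07), and Heyl by 0.09 in XY-KO (adjusted p 0.81) and by -2.59 in XX-WT (adjusted p 9.42e-08), all against XY-WT. Notch3, the receptor of mural cells, fell by 1.49 in XX-WT (adjusted p 2.77e-05) and changed by -0.26 in XY-KO (adjusted p 0.439), per the authors' deposited table.

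Of 11 measured hedgehog genes 3 fell in XY-KO against XY-WT: the Sertoli cell ligand Dhh by 1.34 log2 (adjusted p 0.000733), the target Hhip by 1.26 (adjusted p 9.06e-05) and the receptor Ptch1 by 0.61 (adjusted p 0.0147), as the authors' deposited table gives. In XX-WT against XY-WT 6 fell and 2 rose. Ptch1 and Hhip are known to be switched on by this signal in interstitial cells. Of 11 fetal Leydig genes, none was called in XY-KO against XY-WT (1 at an unadjusted p under 0.05 in limma), and 10 fell in XX-WT against XY-WT. Cyp17a1, an enzyme of androgen synthesis, stood at 155 CPM in XY-KO, 1.19 CPM in XX-WT and 160 CPM in XY-WT.

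Over all genes 9.16% were called higher and 9.11% lower in XY-KO against XX-WT. In this comparison 11 of the 28 mesenchymal genes rose and 3 fell (median 0.34). So did 6 and 2 of the 15 smooth muscle and myoid genes (median 0.37) and 5 and 1 of the 13 pericyte genes (median 0.33). Of the bHLH genes 4 of 7 rose and none fell (median 1.14), and of the Notch genes 4 of 20 rose and none fell (median 0.22). Among the rises were Inhba at 4.06, Jag1 at 2.77 (adjusted p 2.85e-07), Cxcl12 at 2.68 (adjusted p 3.77e-07) and Heyl at 2.68 (adjusted p 9.97e-08), per the authors' deposited table. Igf1 lay at -0.64 (adjusted p 0.00258) and Wnt4 at -2.11 (adjusted p 8.08e-07), from the authors' deposited table.

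**Figure D4:**
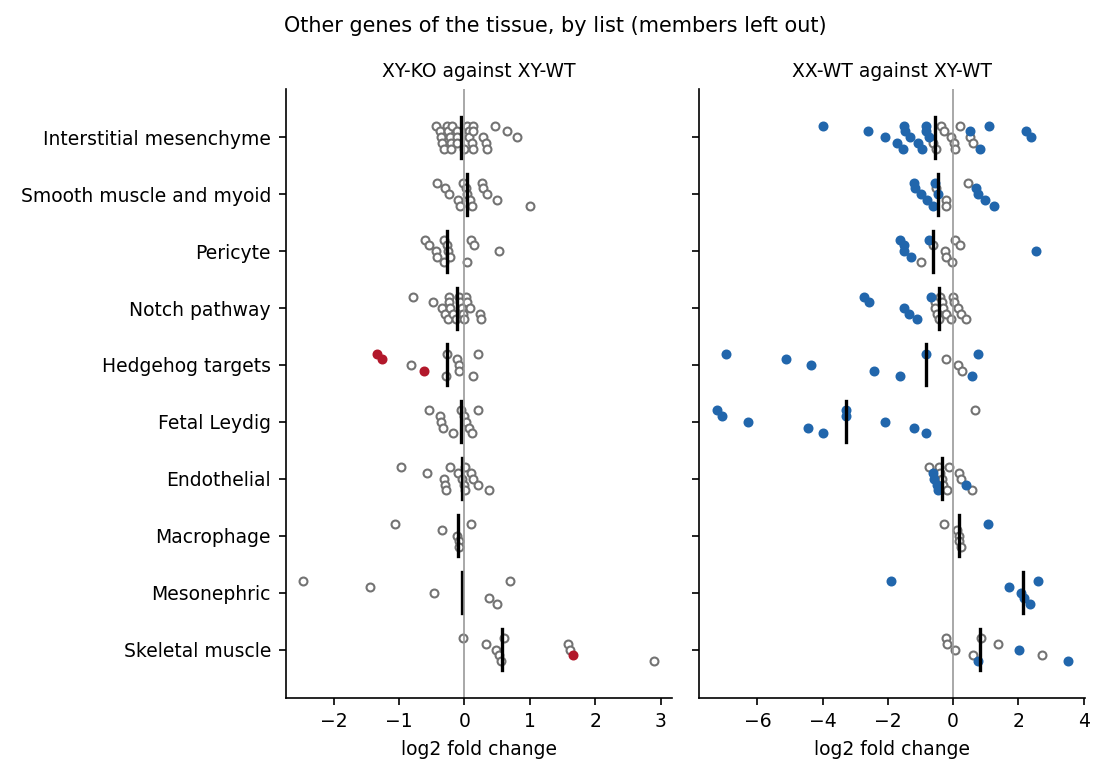
Log2 fold changes of the genes of each list, members left out (points, with the list median as a bar), in XY-KO against XY-WT and XX-WT against XY-WT, with lists on the y axis. Filled points were called. In XX-WT 13 of the 28 mesenchymal, 5 of the 13 pericyte and 6 of the 20 Notch points are filled on the left of 0. On the right 5, 1 and 0 are filled in these lists. The smooth muscle list has 7 filled on the left and 4 on the right. In XY-KO none of these lists has a filled point, while 3 hedgehog points are filled on the left and 1 skeletal muscle point on the right. Over all genes 12.4% were called lower and 10.9% higher in XX-WT against XY-WT, and 1.57% lower and 0.699% higher in XY-KO against XY-WT.

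Markers of other cell types were set beside these values, and their part in the results was not tested. Of 10 measured skeletal muscle genes, the myosin gene Myh8 rose in XY-KO against XY-WT (17, 21.7 and 5.36 CPM in XY-KO, XX-WT and XY-WT) and 3 rose in XX-WT against XY-WT, and the summed level of the list was 77.1 CPM in XY-KO, 81.1 CPM in XX-WT and 41.1 CPM in XY-WT. The defining factors Myod1, Myog, Myf5 and Myf6 were not among the genes of the tables. Of 15 endothelial genes, none was called in XY-KO against XY-WT (2 at an unadjusted p under 0.05 in limma), 4 fell and 1 rose in XX-WT, and the summed level was 227, 210 and 238 CPM in XY-KO, XX-WT and XY-WT. Of 6 mesonephric genes, none was called in XY-KO against XY-WT (2 at an unadjusted p under 0.05 in limma), 5 rose and 1 fell in XX-WT, and the summed level was 93.7, 212 and 72.6 CPM in the same groups, with Wnt9b and Cdh16 not among the genes of the tables. Emx2 of this list is also known from the gonad itself and made up most of the sum, at 81.6, 190 and 58 CPM in the same groups. Of 6 macrophage genes none was called in XY-KO (0 at an unadjusted p under 0.05 in limma) and 1 rose in XX-WT, at summed levels of 18.3, 23.6 and 20.5 CPM. The summed level of the 7 members was 727 CPM in XY-KO, 363 CPM in XX-WT and 715 CPM in XY-WT.

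**Figure D5:**
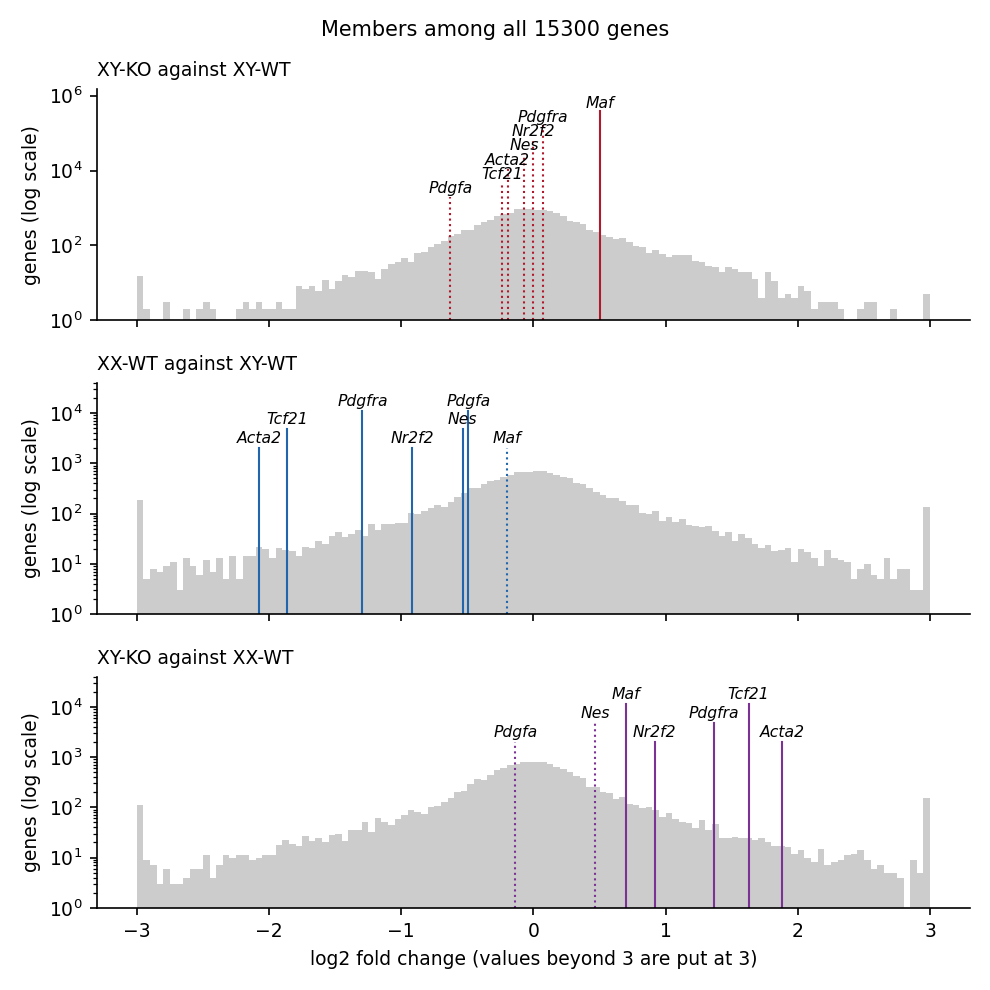
Distribution of log2 fold changes over all 15300 genes (x axis; gene number on a log scale on the y axis) in the 3 comparisons, with the 7 members marked. In XY-KO against XY-WT the members lie between -0.63 and 0.50, and in XX-WT against XY-WT 5 of them lie below -0.5 log2.

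The genes whose values across the 3 groups were most like each member's were found by the distance between the 2 log2 fold changes against XY-WT, among genes within 1 log2 unit of the member's mean level, so they describe 3 group values and share the XY-WT samples. For Tcf21 the nearest of 3941 candidates included Adam12, at a distance of 0.193, and Pcsk5. For Nr2f2 the nearest of 1059 was the collagen gene Col1a2 (distance 0.03), followed by Mme and Adamts9. For Pdgfra it was Etl4, for Acta2 Sorcs2, for Nes Cd47 and for Maf Appl2. For Pdgfa the nearest was Rpl35, called in neither comparison (adjusted p 0.284 in XY-KO and 0.27 in XX-WT in the authors' deposited table). Next came Slc38a1 and then Ncaph2, which was also called in neither. The glutamine transporter Slc38a1 was called in both, at -0.62 in XY-KO (adjusted p 0.0108) and -0.47 in XX-WT (adjusted p 0.00853), from the authors' deposited table.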

How the data were processed

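RNA was measured in 9 samples, 3 each of XY-KO, XX-WT and XY-WT gonads. Per the submitters' processing notes, reads were handled with TopHat2 2.0.8 and Trimmomatic 0.30, counted with HTSeq 0.6.1p1 and tested with limma 3.24.0, on GRCm38; weights, filters and strand use are not given in the sources used here. The 3 deposited tables, each comparing a pair of groups over 15300 genes, hold the authors' log2 fold change and log2 mean expression, the deposited t score and log-odds score, and, per the file headers, a p-value and an adjusted p-value. The mean sums, once unlogged, to 978109 over genes, near the total of CPM, so it was read as log2 CPM.

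No values per sample were used, so depth, counting intervals and leave-one-out values could not be given. Fold changes added up within 0.005 across the tables and t matched p at 15.27 degrees of freedom, which the SEs (log2 fold change over t) and 95% intervals use. Levels assume equal group weight. Genes were called at the authors' limma adjusted p under 0.05 (Benjamini-Hochberg over all genes). The 8 members and 20 further lists were chosen with earlier results of these data known. Named were all members, Sox9, the 3 genes of each list with the smallest adjusted p in each comparison with XY-WT, families of under 8 genes, and the 3 genes most like each member; other genes named were chosen after their values were seen. Positions are from GENCODE M21 (15192 genes matched). Windows of 250 bases before the start came from RefSeq on GRCm38.p6. The GC and length trend was a robust regression of degree 3. The code was tested on simulated data and used pandas 2.3.3, numpy 2.4.6, statsmodels 0.14.6, scipy 1.17.1 and matplotlib 3.10.9 in Python 3.11.15. A few genes of the lists are not reported here by name.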

Additional observations from a re-analysis of the deposited data

How the results depend on the processing

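No paired analysis was possible because the tables hold no values per sample, and for the same reason no replicate could be left out. In XY-KO against XY-WT, 1 member was called; the count was 0 when the adjusted p had to lie under 0.01, 0 with a limit of 2-fold, 2 with the 3 comparisons adjusted together (Pdgfa added), 0 under Bonferroni and 0 without the GC and length trend. All genes called numbered 347, against 139, 190, 922 and 55 under the first 4 of these, and 206 on genes at or above the median expression, where fewer genes were tested; without the trend 119 rose and 143 fell, against 107 and 240. In XX-WT against XY-WT, 6 members called became 4 (0.01), 3 (2-fold), 5 (3 comparisons together), 3 (Bonferroni) and 4 (without the trend). The count stayed at 6 on genes at or above the median expression. The 3560 genes called became 2127 (0.01), 1836 (2-fold), 1879 (median expression) and 627 (Bonferroni). In XY-KO against XX-WT, 5 members became 3 with the 2-fold limit and 3 under Bonferroni, and stayed at 5 under the other settings. The 2796 genes called there became 1699 (0.01), 1540 (2-fold), 1397 (median expression) and 481 (Bonferroni). Of the 6 settings, only the removal of the GC and length trend alters a fold change, so the others could not change a direction. Without the trend no called value of a member changed direction. Nes in XY-KO against XY-WT, not called, was -0.07 and became 0.08 without the trend. The causes of changes were not tested beyond the settings' own construction. Limits: 3 samples a group, unknown depth and SEs taken from a shared fit.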
